A study of Mus musculus with 6 samples.

Results

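The proteins of the mitochondrial ribosome (mitoribosome) are encoded in the nucleus, made in the cytosol and imported into mitochondria. There they join with mitochondrial rRNA to form a large and a small subunit, which translate the few mRNAs of mitochondrial DNA, all of them for parts of the respiratory chain and ATP synthase. Genes of the large subunit carry Mrpl symbols and genes of the small subunit carry Mrps symbols. MYC is a transcription factor known for raising genes of cytosolic ribosomes and of mitochondria, and it binds the E-box. The genes described here are all rows of the table whose symbol starts with Mrpl or Mrps followed by a digit and whose mean over the libraries is at least 1 FPKM (sequenced fragments corrected for transcript length and for library size). All 78 matching genes of the 24908 listed passed that limit, 49 of them Mrpl and 29 Mrps, and no pseudogene or antisense row matched. The table writes the symbols in capitals, given here in mouse spelling.

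Bulk RNA-seq was made from 6 libraries, 1 for each of 3 prostate lobes of 1 MYC mouse and 1 wild-type (WT) littermate, both FVB males 12 weeks old on a purified diet. The lobes were the ventral (VP), dorsolateral (DLP) and anterior prostate (AP). MYC denotes a mouse heterozygous for the Hi-MYC transgene, human c-MYC under the ARR2Pb promoter, a probasin-derived promoter active in prostate epithelium, so it is not meant to be active in the other cell types of the lobe. By single-cell RNA-seq, the authors also detected transgene transcript in some basal, hematopoietic and vascular endothelial cells of the MYC VP. They describe this as potentially leaky expression. RNA came from dissociated lobes and not from sorted epithelium. With 1 library per lobe and genotype there is no replicate, no p-value can be given, and genotype cannot be told apart from animal or library.

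The Myc row was at 226, 201 and 230 FPKM in WT VP, DLP and AP and at 1696, 586 and 231 FPKM in the MYC lobes in the same order. That row therefore marked the libraries labelled MYC VP and MYC DLP, but did not separate the library labelled MYC AP from WT AP, and it does not tell mouse from human transcript. The luminal keratins Krt8 and Krt18 were detected in every library, at 388 FPKM or more. Seminal vesicle transcripts (6 genes, Svs4 and Svs5 leading) summed to 522 FPKM in the library labelled MYC AP and to 9.17 in that labelled MYC DLP, and to at most 0.105 in each WT library and MYC VP. Depth, estimated from the size of 1 read in low FPKM values, ran from 25.5 M reads in WT AP to 50.2 M in MYC AP.

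Levels of the 78 genes spanned more than an order of magnitude within each library, from 1.98 to 104 FPKM in WT VP and from 1.51 to 106 FPKM in MYC AP. The highest means over the 6 libraries were those of Mrpl52 (114 FPKM), Mrps6 (85.4), Mrps21 (72.7), Mrpl42 (55.4) and Mrpl30 (52.8). The lowest were Mrps25 (2.11), Mrpl19 (2.23) and Mrpl35 (2.92). Since FPKM is per length of transcript, these levels can be set beside each other. Summed over the genes, the level was 1536, 1547 and 1173 FPKM in WT VP, DLP and AP. In MYC VP, DLP and AP it was 2122, 1773 and 1335 FPKM. Scaled to the same total FPKM in every library, the sums were 3744, 3575 and 3135 in the WT lobes in that order. In the MYC lobes they were 4393, 3948 and 3509. Mrpl genes so scaled summed to 2286, 2160 and 1906 in WT and to 2865, 2534 and 2102 in MYC. Mrps genes differed by less in VP and DLP, at 1457, 1415 and 1229 in WT and 1528, 1414 and 1407 in MYC. Without this scaling, MYC VP held the highest of the 6 values for 62 of the 78 genes, and WT AP the lowest for 60. MYC VP also had the highest FPKM sum over the whole table (483143) and WT AP the lowest (374085). The same ranks were not counted over all genes. WT AP was also the shallowest library, with an estimated median of 217.5 reads per gene against 690.5 in MYC VP, for the 76 genes with a known transcript length. Both reads and levels enter that median. FPKM corrects for the depth but not for the larger counting error.

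Upstream sequence bears on these genes because MYC binds the E-box and because ETS family factors and NRF1 are known regulators of nuclear genes for mitochondrial proteins. RefSeq promoter windows of 300 bases (250 before to 50 after the start, GRCm38.p6, the assembly of the mm10 build named in the submitters' processing notes) were found for 69 of the 78 genes. The E-box CACGTG, which reads the same on both strands, lay in 5 of the 69 windows (7.25%), against 12.0% of the 9561 compared genes with a window and 8.09% of all 27025 windows. The part upstream of the start of all 5 is shown, in sense orientation, with the E-box in capitals and at most 30 bases on each side.
Mrpl37, chr4:107066993-107067058, minus strand: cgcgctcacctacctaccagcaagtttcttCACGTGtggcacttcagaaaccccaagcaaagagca
Mrpl36, chr13:73330936-73331001, plus strand: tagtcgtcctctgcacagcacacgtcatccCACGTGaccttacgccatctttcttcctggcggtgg
Mrpl20, chr4:155802815-155802877, plus strand: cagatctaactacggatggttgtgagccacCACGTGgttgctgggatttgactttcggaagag
Mrpl2, chr17:46646060-46646125, plus strand: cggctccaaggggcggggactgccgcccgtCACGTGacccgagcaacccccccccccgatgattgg
Mrps18c, chr5:100798566-100798631, plus strand: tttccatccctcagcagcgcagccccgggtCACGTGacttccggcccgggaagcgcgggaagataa

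The ETS core CCGGAAG, read on both strands (CTTCCGG on the other), lay in 26 of the 69 windows (37.7%), against 19.8% of compared genes. It is shown in capitals for Mrps22 and Mrpl34, the 2 genes with the highest VP ratios among those with a match upstream of the start.
Mrps22, chr9:98601680-98601720, minus strand: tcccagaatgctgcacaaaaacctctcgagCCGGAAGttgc
Mrpl34, chr8:71464859-71464925, plus strand: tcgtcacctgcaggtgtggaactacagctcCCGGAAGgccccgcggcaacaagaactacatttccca

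The core of the NRF1 site, CGCATGCG, which also reads the same on both strands, lay in 7 of 69 windows (10.1%), against 4.23% of compared genes. Mrpl9 and Mrpl32 are shown by the same rule, with the core in capitals.
Mrpl9, chr3:94443279-94443335, plus strand: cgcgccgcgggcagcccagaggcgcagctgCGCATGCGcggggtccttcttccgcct
Mrpl32, chr13:14613086-14613153, minus strand: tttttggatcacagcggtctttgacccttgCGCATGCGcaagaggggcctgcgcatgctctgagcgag
A match is a description of the letters in a window and not of binding. The 3 motifs do not overlap each other in letters, but 1 window can hold more than one of them, as that of Mrps18c does.

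To ask how mitoribosome genes differ between MYC and WT prostate, each gene was compared as log2 of (FPKM + 1) in MYC over (FPKM + 1) in WT within the lobe, beside the 12361 genes that averaged 1 FPKM or more over the libraries. This scale understates differences of low genes.

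In the VP, mitoribosome genes were higher in MYC than in WT as a group. The median log2 ratio was 0.51, with the 25th and 75th percentiles at 0.21 and 0.68, against a median of 0.04 over all genes compared. The ratio was above 0 for 71 of the 78 genes (91.0%), against 53.2% of all genes. At least 1.5-fold higher were 27 of 78 (34.6%), against 16.7% of all genes compared. With FPKM scaled to equal sums the count was 8 of 78 (10.3%), no more than the 10.6% of all genes, and it was 8 again, against 10.03%, with the 20 highest genes left out of the sums. None was at least 1.5-fold lower, against 14.9%. On the log2(FPKM + 1) scale, Mrps30 and Mrpl38 were at least 2-fold higher, 2 of 78 against a background of 6.88%. In FPKM without the added 1, Mrpl45 (2.14-fold), Mrps22 (2.10-fold) and Mrpl30 (2.02-fold) were past 2-fold as well. All genes were not counted on that scale, so the 6.88% is no background for it. The shift was thus shared by most of the group and moderate in size.

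Mrps30, named for the small subunit but placed in the large one by mitoribosome structures, read 8.91 FPKM in WT VP, 11.7 in WT DLP, 9.89 in WT AP, 22.5 in MYC VP, 12.8 in MYC DLP and 9.11 in MYC AP. Its MYC VP level stood apart from the other 5 libraries, and its log2 ratio was 1.25 in VP, 0.11 in DLP and -0.11 in AP. Mrpl38, a protein of the central protuberance that has no bacterial counterpart, read 20.2, 21.9 and 18.9 FPKM in WT VP, DLP and AP and 47.3, 31.3 and 18.7 in MYC. Here both MYC VP and MYC DLP lay above all WT libraries, with log2 ratios of 1.19 and 0.50, while AP was at -0.01. Mrpl30, a homolog of a bacterial large subunit protein, read 44.6, 49.0 and 38.0 FPKM in the WT lobes and 89.9, 56.7 and 38.5 in MYC. It lay just under the 2-fold limit on the log2(FPKM + 1) scale, at 0.996 in VP, and was at 0.21 in DLP and 0.02 in AP.

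Mrpl45, which ties the large subunit to the inner membrane near the exit of the peptide tunnel, read 5.18, 4.70 and 3.43 FPKM in WT and 11.1, 6.92 and 4.29 in MYC. Its level was higher in MYC in each lobe, with log2 ratios of 0.96, 0.47 and 0.26. Mrpl12, the stalk protein that recruits translation factors and is also known to bind the mitochondrial RNA polymerase, read 29.997, 33.3 and 29.8 FPKM in WT and 58.3, 40.3 and 23.4 in MYC. Its direction differed between lobes, at 0.93 in VP, 0.27 in DLP and -0.34 in AP. The other stalk genes, Mrpl10 and Mrpl11, were at 0.30 and 0.53 in VP and between -0.04 and 0.21 in DLP and AP. Mrps22, a small subunit protein without bacterial counterpart whose loss causes mitochondrial disease in humans, read 4.78, 6.27 and 5.89 FPKM in WT and 10.05, 6.75 and 5.71 in MYC. It too stood apart in MYC VP alone, with log2 ratios of 0.93, 0.09 and -0.04.

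**Figure D1:**
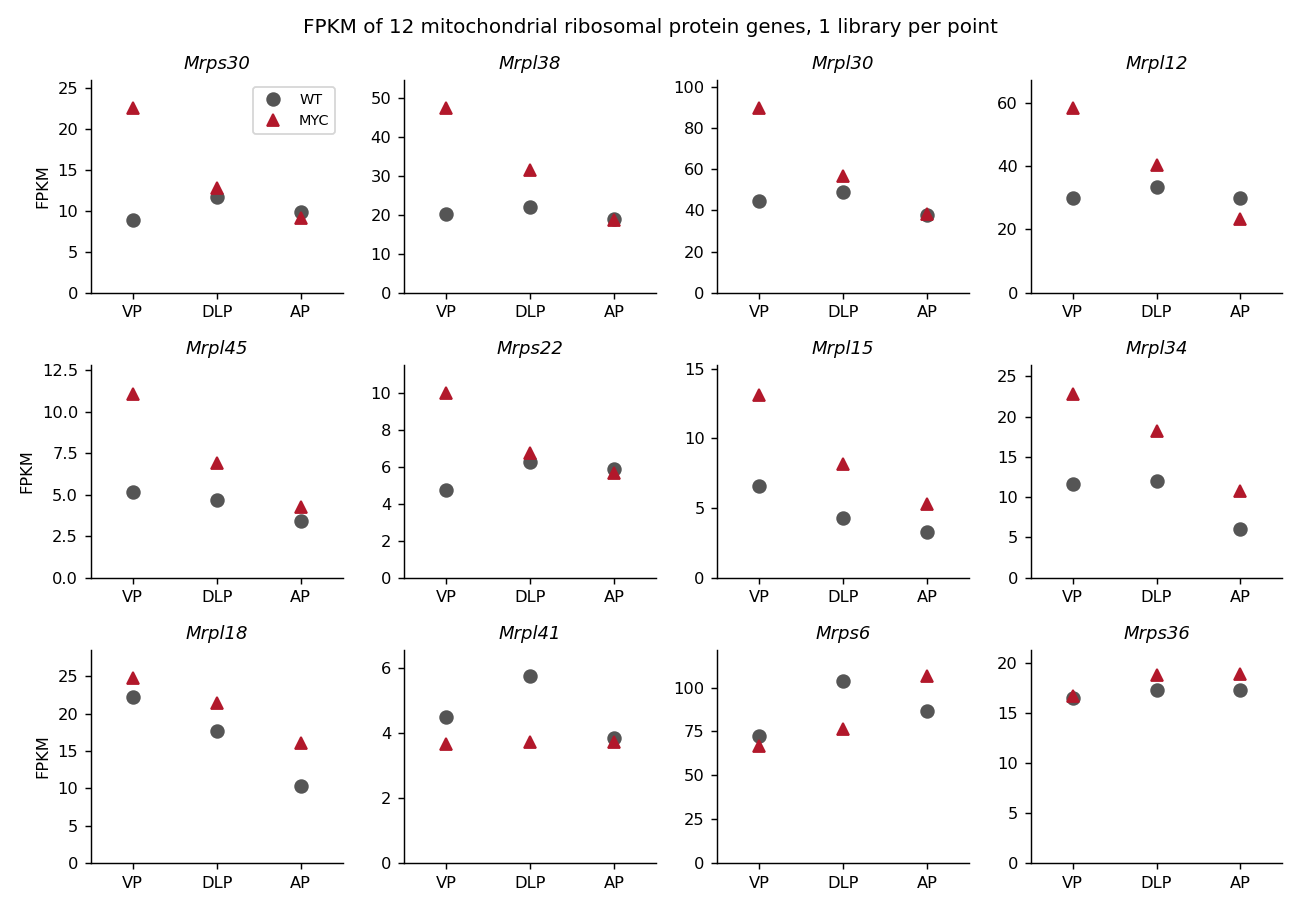
FPKM (vertical axes, each from 0) of 12 mitochondrial ribosomal protein genes by lobe, grey circles WT and red triangles MYC, 1 library per point and no error bars. Mrps30 and Mrps22 stand apart in MYC VP, Mrpl15 and Mrpl34 are higher in MYC in every lobe, Mrpl18 is lowest in WT AP, and Mrpl41 is lower in MYC in every lobe.

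Few genes had a lower value in MYC VP than in WT VP, 7 of the 78. Mrpl41, which has no bacterial counterpart, read 4.49, 5.74 and 3.85 FPKM in WT and 3.64, 3.72 and 3.73 in MYC, log2 ratios of -0.24, -0.51 and -0.03. It was the only gene below 0 in all 3 lobes. Mrps34 was at -0.20, Mrps16 at -0.14, Mrps6 at -0.12 and Mrps18c at -0.09 in VP. Mrps6 read 72.4, 104 and 86.4 FPKM in WT and 66.6, 76.5 and 106 in MYC. It shares its locus and strand with Slc5a3, an inositol transporter gene at 10.4, 17.0 and 14.9 FPKM in WT and 9.84, 12.7 and 23.1 in MYC, so reads of the overlap could be assigned to either. Mrps36 read 16.5, 17.3 and 17.3 FPKM in WT and 16.7, 18.8 and 18.9 in MYC, at most 0.12 apart on the log2 scale. It carries an Mrps symbol but encodes a subunit of the 2-oxoglutarate dehydrogenase complex.

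In the DLP the group lay closer to all other genes. The median log2 ratio was 0.21 (25th and 75th percentiles -0.01 and 0.38), against 0.03 over all genes, and 57 of 78 were above 0 (73.1% against 53.5%). At least 1.5-fold higher were 3 of 78 (3.85%), fewer than the 13.4% of all genes, and none was at least 1.5-fold lower against 9.44%. With a pseudocount of 0.1, 6 genes (7.69%) were at least 1.5-fold higher, against 16.3% of all genes, and Mrpl41 was past 1.5-fold lower (-0.61). With equal sums of FPKM without the 20 highest genes the median fell to 0.0516, 1 gene was at least 1.5-fold higher, against 10.06% of all genes, and Mrpl41 (-0.65) and Mrps6 (-0.60) were past 1.5-fold lower, against 13.7%. No member reached 2-fold, against 6.46%. The 3 at least 1.5-fold higher on the log2(FPKM + 1) scale were Mrpl15, Mrpl22 and Mrpl33, all homologs of bacterial large subunit proteins. Mrpl33 overlaps Gm38424 on the same strand. Without genes that overlap another on the same or an unknown strand, 2 (2.94%) were at least 1.5-fold higher, against 13.4%. Mrpl15 read 4.31 FPKM in WT DLP and 8.16 in MYC DLP, a log2 ratio of 0.79. Mrpl22, at the peptide exit tunnel, read 11.4 and 19.1 FPKM, a ratio of 0.70, and Mrpl33 read 31.9 and 50.6 FPKM, a ratio of 0.65. Mrps9 at 0.58, Mrpl37 at 0.57 and Mrpl34 at 0.57 were just below the limit. The lowest were Mrpl41 (-0.51), Mrps6 (-0.44), Mrps34 (-0.24), Mrps12 (-0.24) and Mrpl43 (-0.23). Mrps12 is the protein of the decoding centre, and it read 25.5, 30.3 and 16.2 FPKM in WT and 26.6, 25.6 and 15.0 in MYC.

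In the AP, where the Myc row did not separate the libraries, the median log2 ratio was 0.21 (25th and 75th percentiles 0.06 and 0.32), but all genes were shifted too, to a median of 0.13. The members' median fell to 0.0799 with size factors from medians of ratios and to 0.0831 when centred on the median of all genes. Above 0 were 67 of the 78 (85.9% against 66.4% of all genes). At least 1.5-fold higher were 3 of 78 (3.85%), against 7.53% of all genes, none was at least 1.5-fold lower against 3.13%, and none reached 2-fold against 2.05%. With a pseudocount of 0.1, 5 genes (6.41%) were at least 1.5-fold higher, against 12.4% of all genes. Mrpl34, a homolog of a bacterial large subunit protein, read 6.05 FPKM in WT AP and 10.8 in MYC AP, a ratio of 0.74. Mrpl18 of the central protuberance read 10.3 and 16.1 FPKM, a ratio of 0.60, and Mrps35 of the small subunit read 7.73 and 12.1 FPKM, a ratio of 0.59. Mrpl15 (0.56) and Mrps11 (0.54) followed. The lowest were Mrpl17, at 5.98 FPKM in WT AP and 3.75 in MYC AP and a ratio of -0.55, then Mrpl12 (-0.34), Mrps2 (-0.28), Mrps18b (-0.25) and Mrpl52 (-0.20). Mrpl17 was past 1.5-fold lower under 5 alternatives, at -0.66 with a pseudocount of 0.1 and between -0.59 and -0.68 under the 4 other scalings, in 3 of which only 1 gene (1.28%) was at least 1.5-fold higher, against 4.66% to 6.57% of all genes. Reads of seminal vesicle transcripts in the library labelled MYC AP stood beside these values, all 6 of 6 marker genes being higher there than in WT AP, and their part in the result was not tested.

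**Figure D2:**
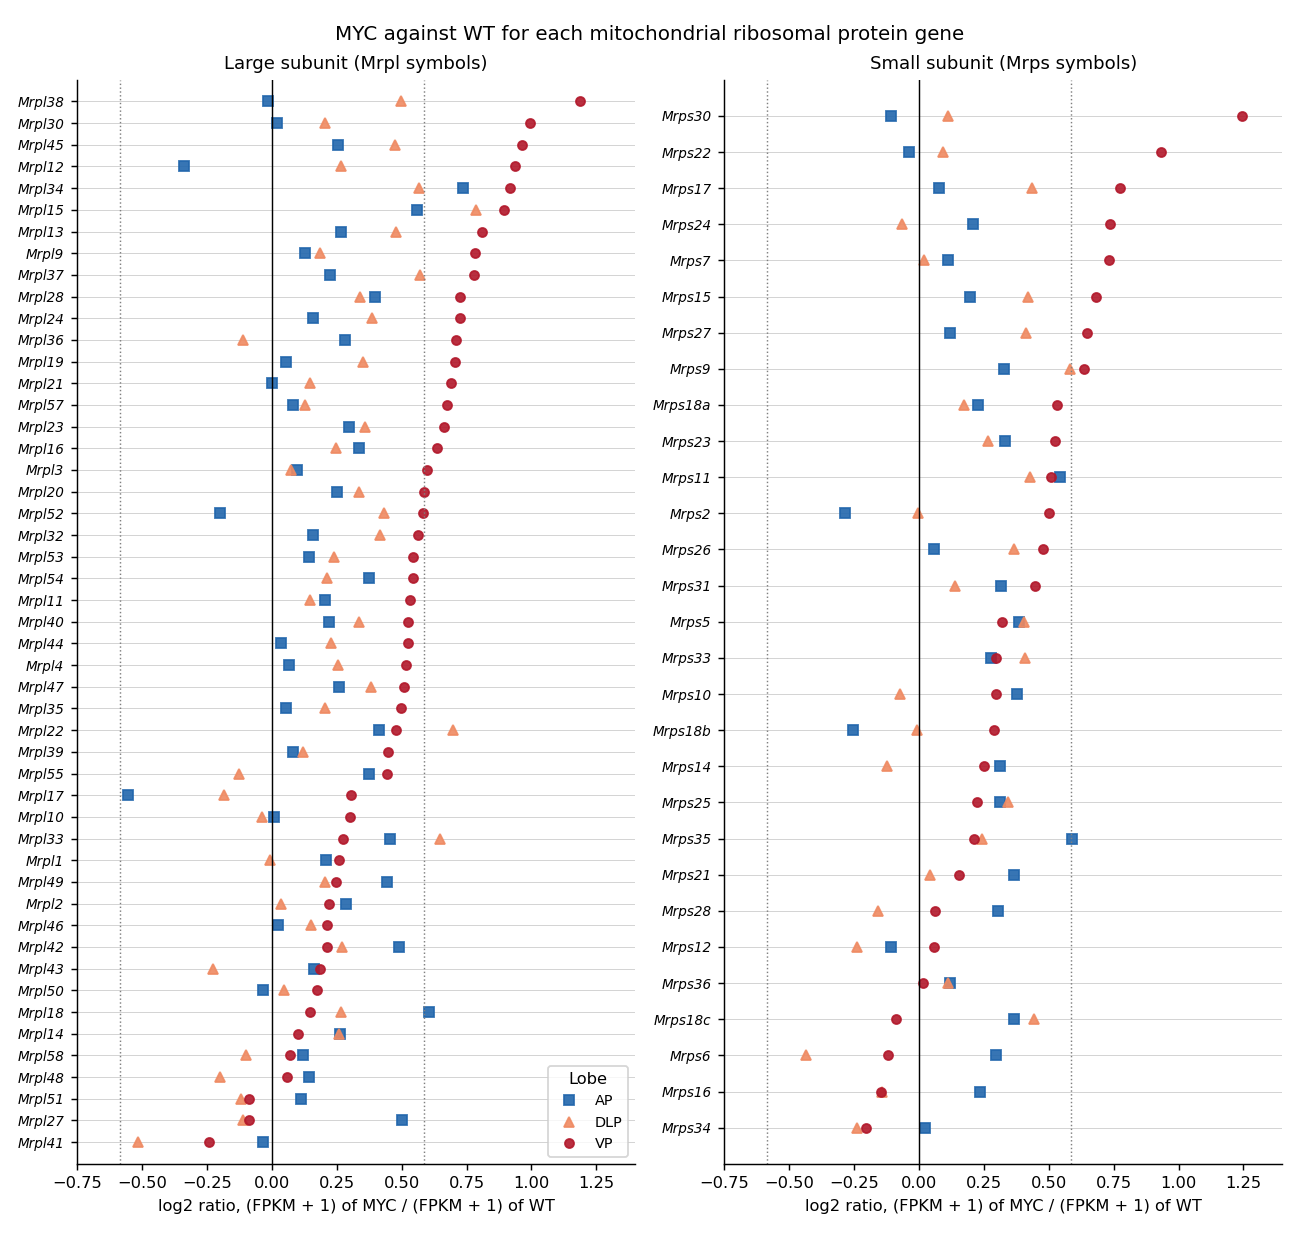
Log2 ratio of (FPKM + 1) in MYC over WT (horizontal axis) for each of the 49 Mrpl genes (left) and 29 Mrps genes (right), ordered by the VP value, with VP as red circles, DLP as orange triangles and AP as blue squares. Dotted lines mark 1.5-fold. VP values are above 0 for 71 of the 78 genes, and no point lies past the lower dotted line.

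Across the lobes, 50 of the 78 genes (64.1%) were above 0 in all 3 comparisons, against 29.9% of all genes. On the log2(FPKM + 1) scale 31 (39.7%) were at least 1.5-fold higher in at least 1 lobe, against 26.4% of all genes, and none in all 3, against 1.74%. In FPKM without the added 1, Mrpl15 and Mrpl34 were at least 1.5-fold higher in all 3 lobes, 2 of 78 against 3.71% of all genes. The VP ratio was the highest of the 3 for 52 genes, the AP ratio for 20 and the DLP ratio for 6. These ranks were not counted over all genes. Mrpl34 and Mrpl15 came nearest to a common difference, with log2 ratios of 0.92, 0.57 and 0.74 and of 0.90, 0.79 and 0.56 in VP, DLP and AP. Mrpl34 read 11.6, 12.0 and 6.05 FPKM in WT and 22.8, 18.2 and 10.8 in MYC, and Mrpl15 read 6.61, 4.31 and 3.27 in WT and 13.2, 8.16 and 5.30 in MYC. Over the 78 genes, VP and DLP ratios went together with a Pearson r of 0.56, as they did over all genes (0.52). VP and AP ratios did not (r of -0.12, and 0.10 over all genes). The genes share libraries within each comparison, so these values are a description. Across the 78 genes, the log2 ratio did not go with the mean level (r of -0.02 in VP, 0.07 in DLP and 0.01 in AP).

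Large subunit genes had the higher median in VP and DLP and small subunit genes in AP. In VP the median log2 ratio was 0.52 over Mrpl genes and 0.32 over Mrps genes, a difference of 0.20, and 19 of 49 Mrpl (38.8%) and 8 of 29 Mrps genes (27.6%) were at least 1.5-fold higher, against 16.7% of all genes. Under the 9 alternatives the VP difference was between 0.20 and 0.25. In DLP the medians were 0.23 and 0.11, and in AP 0.16 and 0.24, a difference that went to 0.0014 without the 10 genes that overlap another gene on the same or an unknown strand. With Mrps30 and Mrps18a counted in the large subunit and Mrps36 in none, as structures place them, the differences were 0.22, 0.10 and -0.13. By origin, the VP median was 0.51 over 46 homologs of bacterial ribosomal proteins, 20 of them (43.5%) at least 1.5-fold higher, and 0.45 over 31 proteins particular to mitochondria, 7 of them (22.6%) at least 1.5-fold higher, nearer to the 16.7% of all genes. The 30 large subunit homologs of bacterial proteins had the highest median of these classes in VP, 0.58, with 15 at least 1.5-fold higher, and the 16 small subunit homologs had 0.31. By place in the large subunit, VP medians were 0.59 over 6 genes of the peptide exit tunnel, 0.53 over the 3 stalk genes and 0.21 over 7 genes of the central protuberance, Mrpl38 among them. The 6 genes listed here for the exit tunnel were above 0 in every lobe, as were 64.1% of the 78 genes. Of the 6, Mrpl44 was at only 0.03 in AP.

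**Figure D3:**
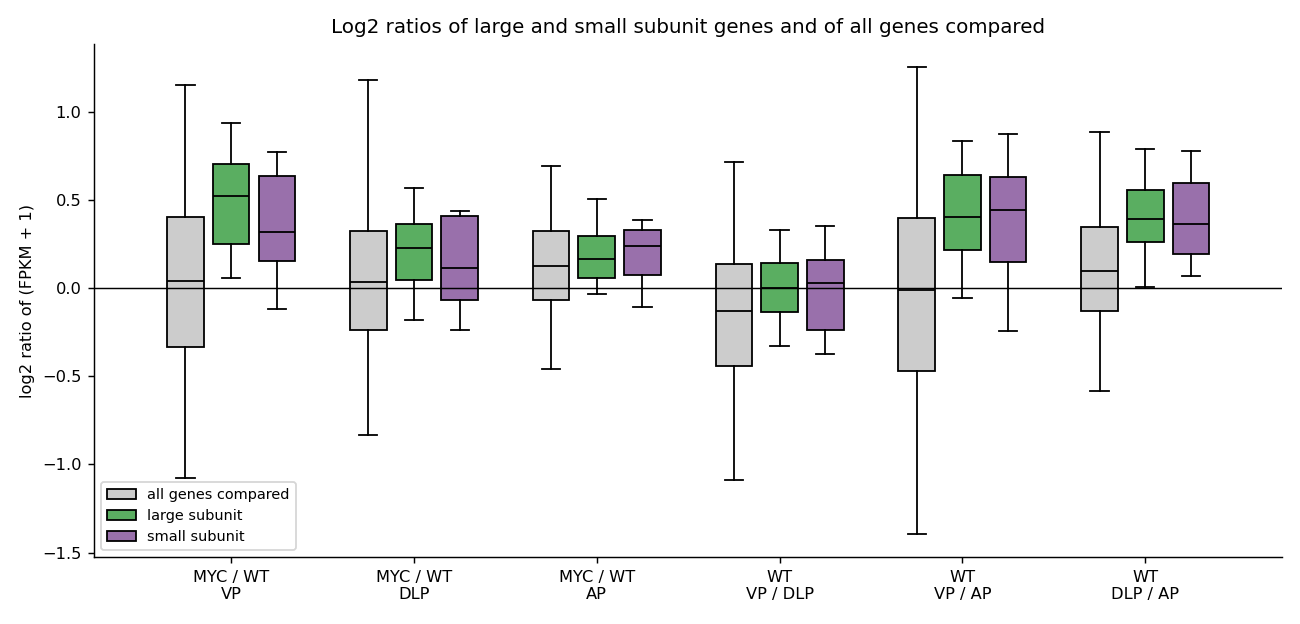
Log2 ratios of (FPKM + 1) (vertical axis) over all 12361 genes compared (grey), 49 large subunit genes (green) and 29 small subunit genes (purple) in the 6 comparisons, as boxes from the 25th to the 75th percentile with the median as a line and whiskers at the 5th and 95th percentiles. Both subunits lie above the grey box's median in each comparison, by most in MYC over WT of the VP and in WT VP over WT AP.

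The WT lobes also differed in these genes. The median log2 ratio of VP over DLP was 0.00 (-0.17 to 0.15) against -0.13 over all genes. On the log2(FPKM + 1) scale none of the 78 was at least 1.5-fold higher (6.93% of all genes) or lower (17.9%). In FPKM without the added 1, Mrpl15, Mrpl9 and Mrps5 were past 1.5-fold higher, a scale on which all genes were not counted here. With a pseudocount of 0.1, 3 genes (3.85%) were at least 1.5-fold higher, against 8.55% of all genes. With size factors from medians of ratios the median was 0.19 and 4 genes (5.13%) were at least 1.5-fold higher, against 11.5% of all genes. Centred on the median of all genes it was 0.13 with 3 genes (3.85%), against 9.77%. AP was the lowest WT lobe for 67 genes, a rank not counted over all genes. VP over AP had a median of 0.42 (0.17 to 0.64) against -0.01 over all genes, with 26 of 78 (33.3%) at least 1.5-fold higher against 17.1%, and none at least 1.5-fold lower against 20.7%. DLP over AP had a median of 0.38 (0.23 to 0.56) against 0.10, with 18 of 78 (23.1%) at least 1.5-fold higher against 12.2%, and none lower against 4.98%. With equal sums of FPKM, VP over AP had a median of 0.30 and 16 of 78 (20.5%) at least 1.5-fold higher against 14.0% of all genes. On that scale DLP over AP had a median of 0.20 and 7 of 78 (8.97%), close to the 7.26% of all genes. These 3 comparisons share libraries, and WT VP and WT AP also enter the MYC comparisons of their lobes.

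Mrpl18, at 22.3, 17.6 and 10.3 FPKM in WT VP, DLP and AP, had the largest VP over AP ratio of the 78, 1.05 on the log2 scale. Mrps10 and Mrps21 followed at 0.90 each, and Mrps21 read 85.7, 73.9 and 45.6 FPKM. For DLP over AP, Mrps24 (0.91), Mrpl34 (0.88) and Mrpl54 (0.88) were highest, and Mrpl54 read 48.6, 53.3 and 28.6 FPKM. Between VP and DLP, Mrpl9 (0.58), Mrps5 (0.57) and Mrpl15 (0.52) were highest in VP, and Mrps6 (-0.51), Mrpl36 (-0.42) and Mrps18a (-0.40) in DLP. A few genes did not follow the low level in AP. Mrpl17 read 4.95, 5.21 and 5.98 FPKM, Mrpl50 10.8, 10.8 and 10.9, and Mrps18a 27.9, 37.0 and 33.2. Mrps22 and Mrps6 were both at -0.25 for VP over AP. By symbol, the large less the small subunit median was -0.03 for VP over DLP, -0.04 for VP over AP and 0.03 for DLP over AP. By structures it was -0.09, -0.10 and -0.04, so the sign of the last turned. By symbol, without genes that overlap another on the same or an unknown strand, each sign turned, to 0.015, 0.032 and -0.0095.

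Counting error was small beside the largest of these differences. Reads per gene were estimated for 76 genes, with medians between 217.5 (WT AP) and 690.5 (MYC VP), from depth and transcript length. In VP, the 95% interval of the ratio (exact Clopper-Pearson, counting error only) lay above 0 for 63 of 76 genes and below for 2, reaching a median of 0.17 to each side on the log2 scale. In DLP it lay above 0 for 43 and below for 6, and in AP above for 37 and below for 5. For WT VP over DLP it lay above 0 for 16 and below for 21, and for WT VP over AP above for 54 and below for 3. For WT DLP over AP it lay above 0 for 60 and below for none, reaching 0.23 to each side. PCR copies, differences between animals and the choice of scaling are not in these intervals. The intervals were computed for the mitoribosome genes only, so these counts have no share of all genes beside them.

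Most other genes of the pathway were also higher in MYC VP than in WT VP. Of 5 mitoribosome proteins under other symbols, 4 were above 0 in VP, against 53.2% of all genes, with a median of 0.54. At least 1.5-fold higher were 2 of these 5 proteins, against 16.7% of all genes. The list plotted also holds their partner Oxa1l and then has a median of 0.71 over 6 genes. Oxa1l, the insertase that receives new proteins at the inner membrane, read 26.7 FPKM in MYC VP against 10.6 in WT VP (log2 ratio 1.26). Ptcd3 and Dap3, both of the small subunit, were at 0.90 and 0.88, and Chchd1 at -0.05. All 14 mitochondrial translation factors were above 0 in VP, with a median of 0.54 and 5 (35.7%) at least 1.5-fold higher, against 16.7% of all genes. Lrpprc, which stabilises mitochondrial mRNAs, read 12.2 FPKM in MYC VP against 3.53 in WT VP, with log2 ratios of 1.54, 0.74 and 0.45 in VP, DLP and AP. Tufm, the elongation factor Tu of mitochondria, was at 1.03, 0.47 and 0.38, and the release factor Mtrf1l was lowest in VP at 0.02.

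Assembly factors were more mixed, with a VP median of 0.40 over 25 genes, 9 (36.0%) at least 1.5-fold higher against 16.7% of all genes, and 1 (4.00%) at least 1.5-fold lower against 14.9%. Noa1, a GTPase of mitoribosome assembly, had the largest ratio of them, at 19.6 FPKM in MYC VP against 3.90 in WT VP (2.07), and Ngrn the lowest (-0.62). Genes for transcription and copying of mitochondrial DNA and their regulators had a VP median of 0.36 over 13 genes, 2 of them (15.4%) at least 1.5-fold higher, near the 16.7% of all genes. Tfb2m was the highest at 0.97, and Polrmt, the mitochondrial RNA polymerase, was at 0.54. Tfam, which packages mitochondrial DNA, was at -0.01, the coactivator Ppargc1a at 0.39 and the nuclear receptor Esrra at -0.47. General mitochondrial proteins had 6 of 14 (42.9%) at least 1.5-fold higher in VP, against 16.7% of all genes. All 14 were above 0, against 53.2% of all genes. Their VP median was 0.53, from Vdac1 (0.23) to Phb2 (1.53), so the mitoribosome genes were not set apart from them in size of difference. Mitochondrially encoded genes were not analysed here.

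Cytosolic ribosomal protein genes differed by more in VP and DLP. Their median log2 ratio over 85 genes was 1.35 in VP, 0.68 in DLP and 0.27 in AP, and 81 (95.3%), 59 (69.4%) and 1 (1.18%) of them were at least 1.5-fold higher. The shares over all genes were 16.7%, 13.4% and 7.53%, so the AP share lay below that of all genes. For WT VP over AP their median was 0.09, below the 0.42 of the mitoribosome genes, so the 2 groups of ribosomal protein genes did not keep one order over the comparisons. These are counts over genes of single libraries, with no test of the difference.

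**Figure D4:**
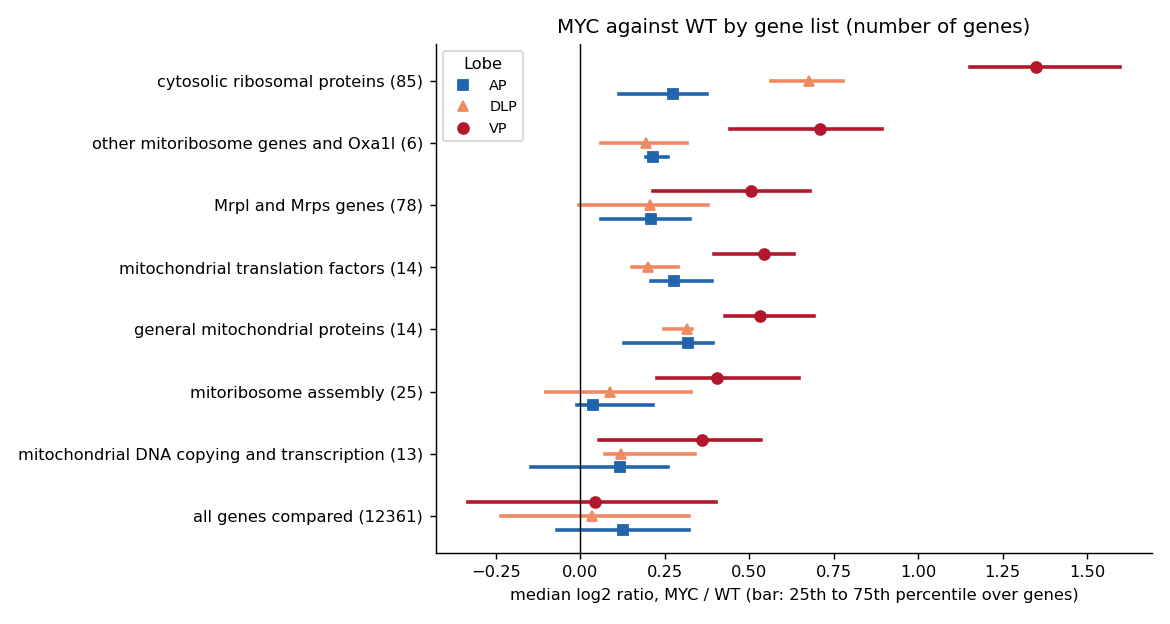
Median log2 ratio of MYC over WT (horizontal axis) by gene list, with the number of genes, in VP (red circles), DLP (orange triangles) and AP (blue squares), and bars from the 25th to the 75th percentile over genes. In VP the mitoribosome genes (0.51) lie near the mitochondrial translation factors (0.54) and general mitochondrial proteins (0.53), and below the cytosolic ribosomal proteins (1.35).

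By promoter motif, the VP medians were 0.59 for the 5 with an E-box and 0.49 for the 64 without. They were 0.30 with and 0.51 without the ETS core, and 0.45 with and 0.51 without the NRF1 core. Among the 5 with an E-box, Mrpl37 (0.78) and Mrpl36 (0.71) were well above the group's median and Mrps18c (-0.09) was among the 7 genes below 0. Of the genes shown for the other motifs, Mrps22 was at 0.93, Mrpl34 at 0.92, Mrpl9 at 0.78 and Mrpl32 at 0.56.

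Markers of other cell types differed between the same libraries. In VP, MYC had 7 of 8 hematopoietic markers higher (summed 24.9 FPKM in WT and 179 in MYC), all 7 proliferation genes higher (2.49 and 43.9), and 5 of 6 fibroblast (648 and 195), all 4 basal (407 and 278), all 6 smooth muscle (358 and 220) and 5 of 6 luminal markers (3555 and 2968) lower. In DLP, 8 of 8 hematopoietic (72.4 and 303), 7 of 7 proliferation (1.94 and 41.4) and 4 of 4 basal markers (918 and 1286) were higher, and 6 of 6 smooth muscle markers (419 and 245) lower. Also in DLP, 4 of 6 luminal markers (1711 and 1917) were higher, and fibroblast markers were 3 higher and 3 lower (1284 and 698). In AP, 6 of 6 smooth muscle (233 and 373), 7 of 7 proliferation (2.39 and 13.0), 5 of 6 fibroblast (1201 and 1365) and 5 of 5 endothelial markers (143 and 156) were higher. The endothelial log2 ratios ran from 0.002 (Pecam1) to 0.27 (Emcn). In that lobe 4 of 6 luminal markers (1759 and 1562) were lower, and basal markers were 2 higher and 2 lower (1337 and 859). Between WT lobes, VP had all 4 basal (407 and 1337 in AP), all 6 fibroblast (648 and 1201), all 5 endothelial (23.7 and 143) and all 8 hematopoietic markers (24.9 and 145) lower than AP. All 6 smooth muscle markers (358 and 233) were higher in VP, as were 4 of 6 luminal markers (3555 and 1759), Krt8 (log2 ratio 1.69) and Krt18 (1.55) by most, while Cd24a (-0.54) and Epcam (-0.24) were lower. VP also had all 4 basal (407 and 918 in DLP), all 6 fibroblast (648 and 1284), all 5 endothelial (23.7 and 108), all 8 hematopoietic (24.9 and 72.4) and all 6 smooth muscle markers (358 and 419) lower than DLP, and 3 of 6 luminal markers higher (3555 and 1711). DLP had all 8 hematopoietic (72.4 and 145) and all 5 endothelial markers (108 and 143) lower than AP, and all 6 smooth muscle markers (419 and 233) higher. No hematopoietic, basal or fibroblast marker was at 0 in any library. Adipocyte markers were at or near 0 in every library but for Fabp4, and skeletal muscle markers summed to at most 17.0 FPKM. The part of these cells in the results was not tested, and in bulk RNA a change in the number of cells of a type cannot be told apart from a change in RNA per cell.

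The summed FPKM of the whole table was 410188 in WT VP and 483143 in MYC VP. Scaled to equal sums, the VP median of the mitoribosome genes was 0.29 against -0.15 over all genes.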

How the data were processed

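Per the labels and methods, the authors made stranded poly(A) libraries from dissociated lobes, sequenced single-end reads, mapped them with STAR and quantified genes with Cufflinks in VIPER. The authors deposited 1 table of FPKM, named as counts, for the 6 libraries. Its values are not whole and the design's count model (DESeq2) could not be applied. Depth was estimated from FPKM steps of low genes (single transcripts over 600 bases, under 0.3 FPKM), of which 34.4% to 48.3% lay within 3% of a whole read, so it is approximate. Reads per gene used GENCODE M1 lengths less 200 bases. Ratios were log2 with a pseudocount of 1, for genes that averaged 1 FPKM or more. Calls were at 1.5-fold and 2-fold. Computation used Python 3.11.15, pandas 2.3.3 and scipy 1.17.1, and was tested on simulated data.

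The members and lists were chosen with earlier results of these data known. Genes named were the 5 highest and 5 lowest ratios per lobe, the 3 highest and 3 lowest per WT difference, the 5 highest and 3 lowest levels, and genes of set roles. Mrpl20, Mrpl2 and Mrpl32 were named for their promoters alone. The cytosolic list left out S6 kinase genes and Rps19bp1. All 78 symbols were found in RefSeq GRCm38.p6, where 25 overlap another gene, 10 of them on the same or an unknown strand. Alternatives covered pseudocount, filter, scaling, subunit assignment and overlapping genes.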

Additional observations from a re-analysis of the deposited data

Results flagged for a closer look

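On the log2(FPKM + 1) scale, Mrpl12 differed in direction between lobes by at least 1.25-fold each way. It was at 58.3 FPKM in MYC VP against 29.997 in WT VP, and at 23.4 in MYC AP against 29.8 in WT AP, so that the log2 ratio of the VP exceeded that of the AP by 1.27. With 1 library per lobe and genotype the difference was not tested. On that scale no other of the 78 genes did so. Without the added 1, Mrpl17 was also past that limit both ways, at 1.28-fold in VP and 0.627-fold in AP.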

How the results depend on the processing

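The median over the mitoribosome genes stayed above 0 in every comparison and alternative run, between 0.26 and 0.54 for MYC over WT in VP, 0.05 and 0.23 in DLP and 0.08 and 0.24 in AP. Counts at 1.5-fold depended on scale, and the share of all genes under the same setting is given in brackets after each. With a pseudocount of 0.1, the genes at least 1.5-fold higher were 6 in DLP (16.3%), 5 in AP (12.4%) and 3 for WT VP over DLP (8.55%). With size factors from medians of ratios, AP had a median of 0.0799 and 1 gene (4.70%), WT VP over DLP 0.19 and 4 (11.5%), and WT DLP over AP 0.26 and 10 (8.55%). With equal sums of FPKM, MYC VP had 0.29 and 8 (10.6%), WT VP over DLP 2 genes (8.41%), WT VP over AP 0.30 and 16 (14.0%), and WT DLP over AP 0.20 and 7 (7.26%). Leaving the 20 highest genes out of those sums gave 0.26 and 8 (10.03%) in VP, 0.0516 and 1 (10.06%) in DLP, 1 gene (6.57%) in AP and 3 (8.72%) for WT VP over DLP. Centred on the median of all genes, AP had 0.0831 and 1 (4.66%), and WT VP over DLP 0.13 and 3 (9.77%). Genes at least 1.5-fold lower, none as reported, were 1 in DLP with a pseudocount of 0.1 (11.9%) and 2 with sums that leave out the 20 highest genes (13.7%), and 1 in AP under both and the 3 other scalings (3.48% to 5.12%). The difference of large and small subunit medians in AP turned to 0.0014 without the 10 of 25 overlapping genes whose neighbour is on the same or an unknown strand, an alternative chosen after seeing the data. That alternative also turned the small differences between WT lobes, to 0.015 for VP over DLP, 0.032 for VP over AP and -0.0095 for DLP over AP, and a mean of at least 10 FPKM turned those for VP over AP and DLP over AP, to 0.027 and -0.0037. Leaving out a replicate was not possible with 1 library per group, and no pseudogene or antisense row was there to remove. No paired analysis was possible because all libraries of a genotype come from 1 animal, and each group has replicate 1 only. Depth limits genes with few reads, the lowest estimate being 47 in WT AP.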
